A study of Rattus norvegicus with 8 samples.

Results

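Voltage-gated potassium (Kv) channels are built from pore-forming alpha subunits and from auxiliary subunits that set their gating and their number at the surface. The genes described here are Kcnip1, Kcnip2, Kcnip3 and Kcnip4 (the potassium channel interacting proteins, KChIPs), Dpp6, the Kv4 alpha subunits Kcnd2 and Kcnd3, and the Kv beta subunits Kcnab1, Kcnab2 and Kcnab3. They were chosen by measured values: Kcnip3 and Kcnab1 stood near the top of the array by p-value in the comparison of inactivated baculovirus with saline, and the other genes are their families and partners. Every probe set annotated with 1 of these symbols alone was taken. That gave 24 probe sets for 10 genes, among 20826 probe sets with a single symbol and 31099 in all.

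KChIPs are cytosolic calcium-binding proteins of the neuronal calcium sensor family that attach to the N-terminus of Kv4 alpha subunits. With DPP-like membrane proteins such as DPP6 they form the channels of the fast, subthreshold A-type current, which delays firing and limits the spread of action potentials into dendrites, and which is prominent in projection neurons of the striatum. Kv beta subunits instead bind the cytosolic side of Kv1 alpha subunits, and some of them carry an N-terminal segment that plugs the pore and inactivates the channel. Kcnip3 is also known as calsenilin and as DREAM, a calcium-sensitive repressor that binds DNA with the core GTCA.

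The samples were brain tissue of adult male Wistar rats of 250 to 300 g, taken 48 hours after stereotaxic injection into the striatum, hybridised to Affymetrix Rat Genome 230 2.0 arrays. In the inactivated baculovirus group (4 arrays), 5 µl with 50000000 vector particles were given after 1 hour of ultraviolet irradiation at 254 nm. The PBS group (4 arrays) was given 5 µl of buffered saline. Injections were made at 2 sites, the strain is missing from the label of PBS replicate 2, and either of a pair of labelling kits was used, without record of which array had which. Baculovirus vectors are insect viruses that enter mammalian cells without replicating. The design text names 7 rats with PBS on the opposite side of the brain, and arrays are not tied to rats in the labels. Errors therefore measure the spread between these samples, and some arrays may share an animal. If all arrays came from those 7 rats without pooling, some must, while the fit treats arrays as independent.

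The values are deposited intensities, in arbitrary linear units that cannot be compared between probe sets. Differences are given as inactivated baculovirus minus PBS on the log2(intensity + 16) scale, with limma standard errors (SE) or 95% intervals from a fit over all probe sets. Testing was limited to probe sets whose mean log2 level over the 8 arrays exceeded the 40th percentile (intensity near 26.0), which kept 19 of the 24 and all 10 genes. All 57 control probe sets were left out. Correlations between arrays ran from 0.970 to 0.986, and the tissue held the striatal marker Ppp1r1b at 976 to 1393 on all arrays. PBS replicate 4 stood apart in the choroid plexus gene Ttr, at 47.7 against 1563 to 1968 on the others.

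The start regions of the 4 genes whose groups did not overlap in 1 probe set are shown because the results turn on these genes. They are RefSeq windows on the GRCr8 build, 250 bases before to 50 bases after the annotated start, written 5′ to 3′, with each GTCA and its reverse complement TGAC in capitals.
Kcnip3, chr3:135195361-135195660, - strand: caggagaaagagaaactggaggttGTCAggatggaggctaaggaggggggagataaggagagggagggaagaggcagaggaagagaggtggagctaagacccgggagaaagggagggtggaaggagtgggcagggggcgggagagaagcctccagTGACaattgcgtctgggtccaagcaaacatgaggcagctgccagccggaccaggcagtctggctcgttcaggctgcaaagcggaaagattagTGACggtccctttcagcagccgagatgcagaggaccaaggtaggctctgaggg
Kcnab1, chr2:151614301-151614600, + strand: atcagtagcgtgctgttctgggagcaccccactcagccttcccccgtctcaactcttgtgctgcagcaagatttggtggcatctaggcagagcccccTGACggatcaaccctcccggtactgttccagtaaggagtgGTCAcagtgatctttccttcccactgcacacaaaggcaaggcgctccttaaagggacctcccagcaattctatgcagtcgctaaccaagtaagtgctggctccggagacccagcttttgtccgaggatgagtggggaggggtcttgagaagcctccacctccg
Kcnd2, chr4:50742235-50742534, + strand: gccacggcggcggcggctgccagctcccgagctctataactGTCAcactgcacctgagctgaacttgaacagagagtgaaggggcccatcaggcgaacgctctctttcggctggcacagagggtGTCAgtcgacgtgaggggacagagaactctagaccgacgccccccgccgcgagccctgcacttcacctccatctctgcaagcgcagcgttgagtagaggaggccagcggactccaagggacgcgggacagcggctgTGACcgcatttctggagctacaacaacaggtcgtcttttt
Kcnd3, chr2:195626066-195626365, + strand: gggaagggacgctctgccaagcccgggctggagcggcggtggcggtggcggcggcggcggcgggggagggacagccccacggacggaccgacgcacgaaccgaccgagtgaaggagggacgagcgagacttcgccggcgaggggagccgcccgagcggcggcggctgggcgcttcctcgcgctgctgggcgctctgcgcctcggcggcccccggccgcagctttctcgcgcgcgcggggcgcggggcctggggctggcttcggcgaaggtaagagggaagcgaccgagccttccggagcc
GTCA on either strand, with overlapping matches counted, was found 3 times in the Kcnip3 window, 2 in that of Kcnab1, 3 in that of Kcnd2 and 0 in that of Kcnd3. It occurs in 85.6% of all 33469 start windows, so a match describes the window and is not a binding site. Kcnd3 has the most G and C of them, 77.7%, against a median of 51.7% over all windows. Of the 10 genes 9 had a window in the table, Kcnip1 had more than 1, and Kcnip4 had none.

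At an adjusted p of 0.05 limma called 0 probe sets over the whole array (0%), and therefore 0 of the 19 tested members. At an unadjusted p under 0.05 there were 1254 probe sets, 6.73% of those tested, and 6 of the 19. Of the members 2 were higher and 4 lower, against 2.51% and 4.22% of all tested probe sets. The groups did not overlap for 719, 3.86% of those tested, and for 4 of the 19, which were 1 probe set each of Kcnip3, Kcnab1, Kcnd2 and Kcnd3. In 1 the baculovirus arrays were the higher ones and in 3 the lower, against 1.55% and 2.31% of all. Since the same comparison chose the families, these counts describe the members and test nothing. Without the families' founders, 15 probe sets of 8 genes remained, of which 3 were at an unadjusted p under 0.05 and 2 did not overlap. The 3 were both tested probe sets of Kcnd2 and 1 of Kcnd3, and the 2 were 1 of each of these genes. These 8 genes too were chosen with earlier results of these data known. Of all 19, 9 had a higher mean after inactivated baculovirus and 10 a lower one, with a median log2 difference of -0.01, while 53.7% of all tested probe sets had a higher and 46.3% a lower mean, with a median of 0.01. Differences on the log2(intensity + 16) scale, which understates those of dim probe sets, ran from -0.39 to 0.43, and on that scale 0 of the 19 reached 1.5-fold. The ratio of mean intensities was 1.59 for the dim Kcnip3 probe set 1387421_at, whose log2 difference was 0.61 with a pseudocount of 1.

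**Figure D1:**
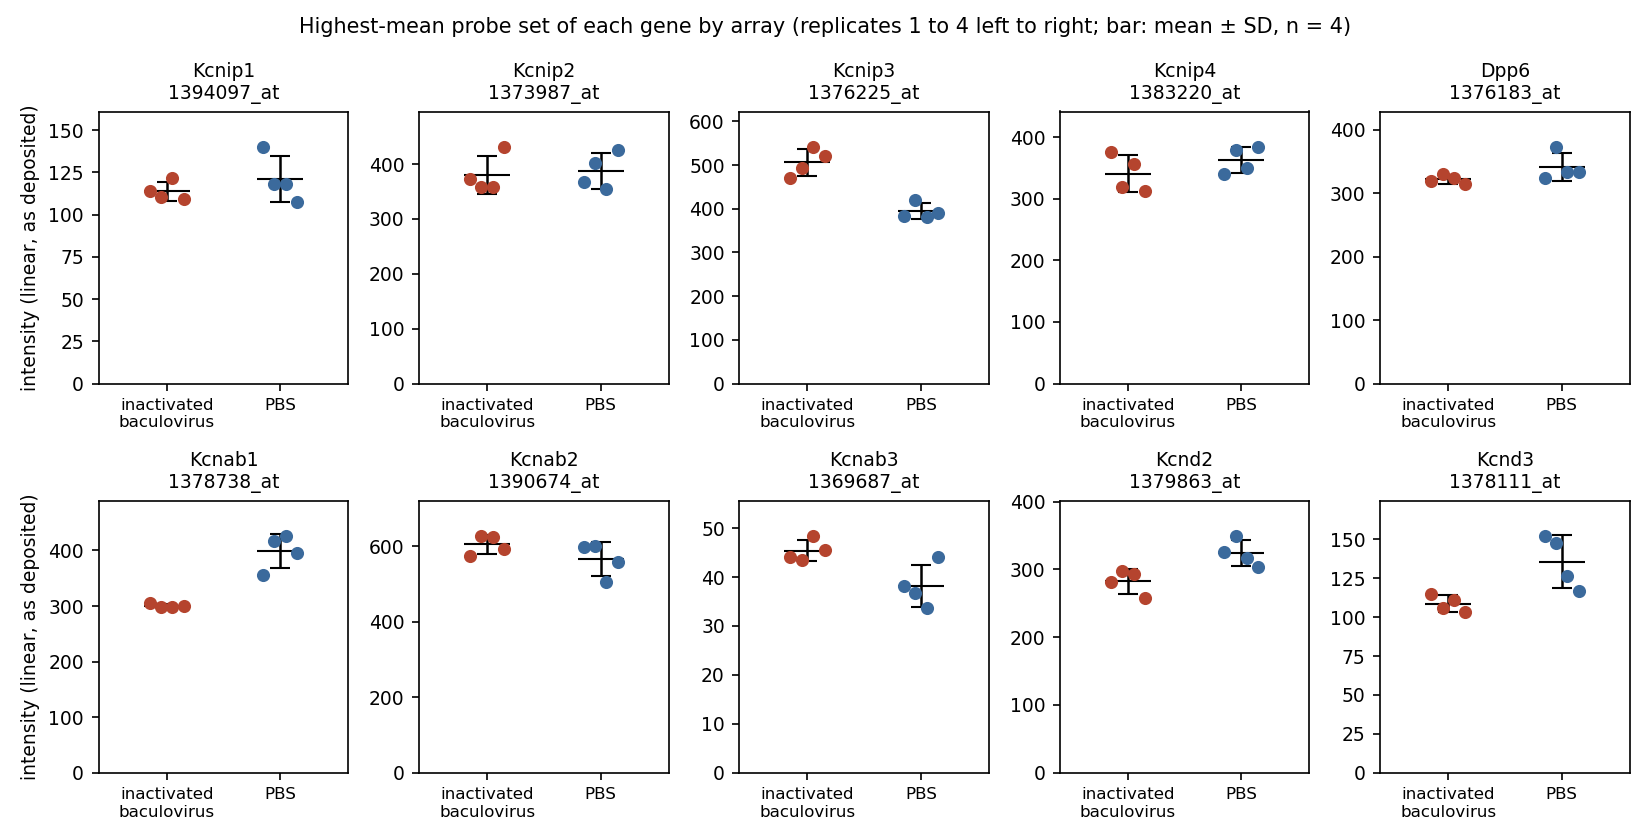
Intensity (linear, as deposited) of the highest-mean probe set of each gene on each of the 8 arrays, with inactivated baculovirus on the left and PBS on the right of each panel. Points are arrays, bars are mean ± SD (n = 4 each), and the groups are apart for Kcnip3, Kcnab1, Kcnd2 and Kcnd3.

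Both Kcnip3 probe sets had higher means after inactivated baculovirus. Its brighter probe set, 1376225_at, measured 471, 492, 541 and 520.2 on inactivated baculovirus arrays and 384, 421, 381 and 391 on PBS arrays. Every baculovirus array lay above every PBS array, and the group means were 506 ± 31.1 on baculovirus arrays and 394 ± 18.5 on PBS arrays (SD, n = 4 each). This was a log2 difference of 0.35 (95% interval 0.19 to 0.50), a 1.27-fold higher level on that scale. This probe set chose the family, ranking 5 among 18625 by p, so its difference is a description.

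The dimmer Kcnip3 probe set, 1387421_at, had the same direction with a wider spread. It measured 39.9, 44.6, 65.4 and 26.7 after inactivated baculovirus and 28.4, 26.4, 20.8 and 35.3 after PBS. Baculovirus replicate 4 fell inside the PBS range and replicate 3 was the highest array, so the groups overlapped. The log2 difference was 0.43 ± 0.17 (SE), and it was 0.27 without baculovirus replicate 3 and 0.58 without baculovirus replicate 4. Spread between replicates placed the bright probe set at percentile 6.39 and the dim one at percentile 95.1 of all tested probe sets.

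The brightest probe sets of the other KChIPs overlapped between the groups. Kcnip2, the partner that dominates Kv4 channels of heart and is abundant in striatum, measured 372, 358, 358 and 431 after inactivated baculovirus with 1373987_at, and 367, 403, 355 and 425 after PBS. These ranges nearly coincide, and the log2 difference was -0.03 (95% interval -0.21 to 0.16). Its second probe set, 1370773_a_at, read 46.8, 49.3, 64.6 and 40.5 after inactivated baculovirus against 34.3, 43.5, 33.0 and 44.4 after PBS, with 0.27 (-0.01 to 0.54), and 0.17 without baculovirus replicate 3, its highest array. The third, 1368639_at, was below the level filter at 6.95 ± 1.93 on baculovirus arrays and 5.43 ± 3.49 on PBS arrays (SD, n = 4 each).

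Kcnip4, whose KChIP4a form slows the inactivation of Kv4 channels, overlapped in both probe sets. It measured 376, 318, 356 and 313 after inactivated baculovirus and 341, 379, 349 and 384 after PBS with 1383220_at, a log2 difference of -0.09 (95% interval -0.26 to 0.08). With 1370595_a_at it measured 91.0, 75.2, 125 and 59.6 after inactivated baculovirus against 80.3, 76.7, 61.5 and 95.9 after PBS. That difference was 0.11 (-0.26 to 0.47), and -0.05 without baculovirus replicate 3, the array that was highest.

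Kcnip1, a KChIP of interneurons, measured 114, 110.4, 122 and 109 after inactivated baculovirus and 140.0, 118, 118 and 108 after PBS with 1394097_at. PBS replicate 1 was the highest and the rest overlapped, with a log2 difference of -0.07 (95% interval -0.27 to 0.13). Its other probe sets were below the filter. 1370781_a_at averaged 23.6 ± 2.07 on baculovirus arrays and 25.2 ± 7.05 on PBS arrays, and 1369603_at was near 0 at 2.11 ± 2.07 on baculovirus arrays and 1.17 ± 1.07 on PBS arrays (SD, n = 4 each).

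Dpp6, the single-pass membrane protein that brings Kv4 channels to the surface and speeds their gating, measured 319, 331, 324 and 315 after inactivated baculovirus and 323, 373, 334 and 334 after PBS with 1376183_at. PBS replicate 2 was the highest array and the others lay close together. The log2 difference was -0.08 (95% interval -0.23 to 0.08), and the spread between replicates was small, at percentile 3.30 of all tested probe sets. The other probe set, 1369390_a_at, had 67.2 ± 4.96 on baculovirus arrays and 64.5 ± 9.27 on PBS arrays (SD, n = 4 each) and a difference of 0.05 (-0.18 to 0.28).

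The Kv4 pore subunit genes had lower means after inactivated baculovirus in their brightest probe sets. Kcnd2, which encodes Kv4.2, the main dendritic A-type subunit of striatal projection neurons, measured 281, 297, 293 and 257 after inactivated baculovirus and 325, 349, 317 and 304 after PBS with 1379863_at. The highest baculovirus array, at 297, stood just under the lowest PBS array, at 304. The log2 difference was -0.19 (95% interval -0.35 to -0.02). The second probe set, 1387476_at, measured 146, 144, 177 and 125 after inactivated baculovirus against 245, 219, 148 and 173 after PBS, with a difference of -0.35 (-0.65 to -0.05). Its groups overlapped, through PBS replicates 3 and 4 and baculovirus replicate 3. In bulk tissue fewer cells of a type and less RNA per cell cannot be told apart.

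Kcnd3, which encodes Kv4.3, measured 115, 106, 111 and 104 after inactivated baculovirus and 152, 148, 127 and 117 after PBS with 1378111_at. The gap between the groups was narrow, 115 against 117, while PBS replicates 1 and 2 stood well above. Kcnd3 differed by -0.28 on the log2 scale (95% interval -0.48 to -0.07). The probe set 1369144_a_at had overlapping groups, with 95.4, 78.3, 81.9 and 71.3 after inactivated baculovirus against 75.8, 97.6, 80.9 and 83.0 after PBS, and -0.04 (-0.27 to 0.19). It was 0.01 when baculovirus replicate 4 was left out and 0.02 when PBS replicate 2 was. The third probe set, 1369145_a_at, was below the filter at 18.9 ± 9.77 on baculovirus arrays and 17.6 ± 9.58 on PBS arrays (SD, n = 4 each).

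Among the Kv beta subunits, Kcnab1 had lower intensities after inactivated baculovirus in 1 of its probe sets. Kcnab1 makes the beta subunit that turns Kv1 channels into fast-inactivating ones. Its brighter probe set, 1378738_at, measured 306, 299, 298 and 300.2 after inactivated baculovirus and 356, 417, 426 and 395 after PBS. The baculovirus arrays were nearly equal, with an SD of 3.47 about a mean of 301, while the PBS arrays had 398 ± 30.9 (n = 4 each). Their log2 difference stood at -0.39 (95% interval -0.55 to -0.22), 0.766 of the PBS level on that scale. This probe set chose the beta family, ranking 3 among 18625 by p.

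The other Kcnab1 probe set, 1369847_at, varied too much between replicates (percentile 97.5 of all tested probe sets) to show or leave out a difference of that size. It measured 93.0, 75.3, 102 and 66.9 after inactivated baculovirus and 49.6, 94.96, 80.8 and 126 after PBS. PBS replicate 1 was the lowest and PBS replicate 4 the highest of all arrays, and the baculovirus arrays lay between them. The log2 difference was -0.01 (95% interval -0.43 to 0.41) and ran from -0.21 to 0.16 when 1 array was left out, positive in 4 of these 8 fits. Averaging both probe sets gave -0.20 for the gene.

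Kcnab2, the most abundant beta subunit of brain as protein and a carrier of Kv1 channels to the axon, overlapped in every probe set. The brightest, 1390674_at, measured 575, 627, 625 and 594 after inactivated baculovirus against 598, 602, 504 and 559.9 after PBS, with a log2 difference of 0.10 (95% interval -0.06 to 0.26). PBS replicate 3 was the lowest array here, and it was again the lowest for 1397663_at, at 16.7 against 37.5 to 65.3 on the other arrays. For 1397663_at there was a difference of 0.28 ± 0.22 (SE), which was 0.04 without PBS replicate 3. 1391203_at stood at 0.02 ± 0.13 and at -0.01 with median centring, and 1387689_at was below the filter at 4.99 ± 0.658 on baculovirus arrays and 4.33 ± 0.554 on PBS arrays (SD, n = 4 each).

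Kcnab3, the remaining Kv beta subunit gene, has 1 probe set, 1369687_at. It measured 44.1, 43.5, 48.3 and 45.6 after inactivated baculovirus and 38.1, 36.7, 33.7 and 44.0 after PBS. PBS replicate 4 was the only PBS array inside the baculovirus range, and the log2 difference was 0.18 (95% interval -0.03 to 0.40).

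**Figure D2:**
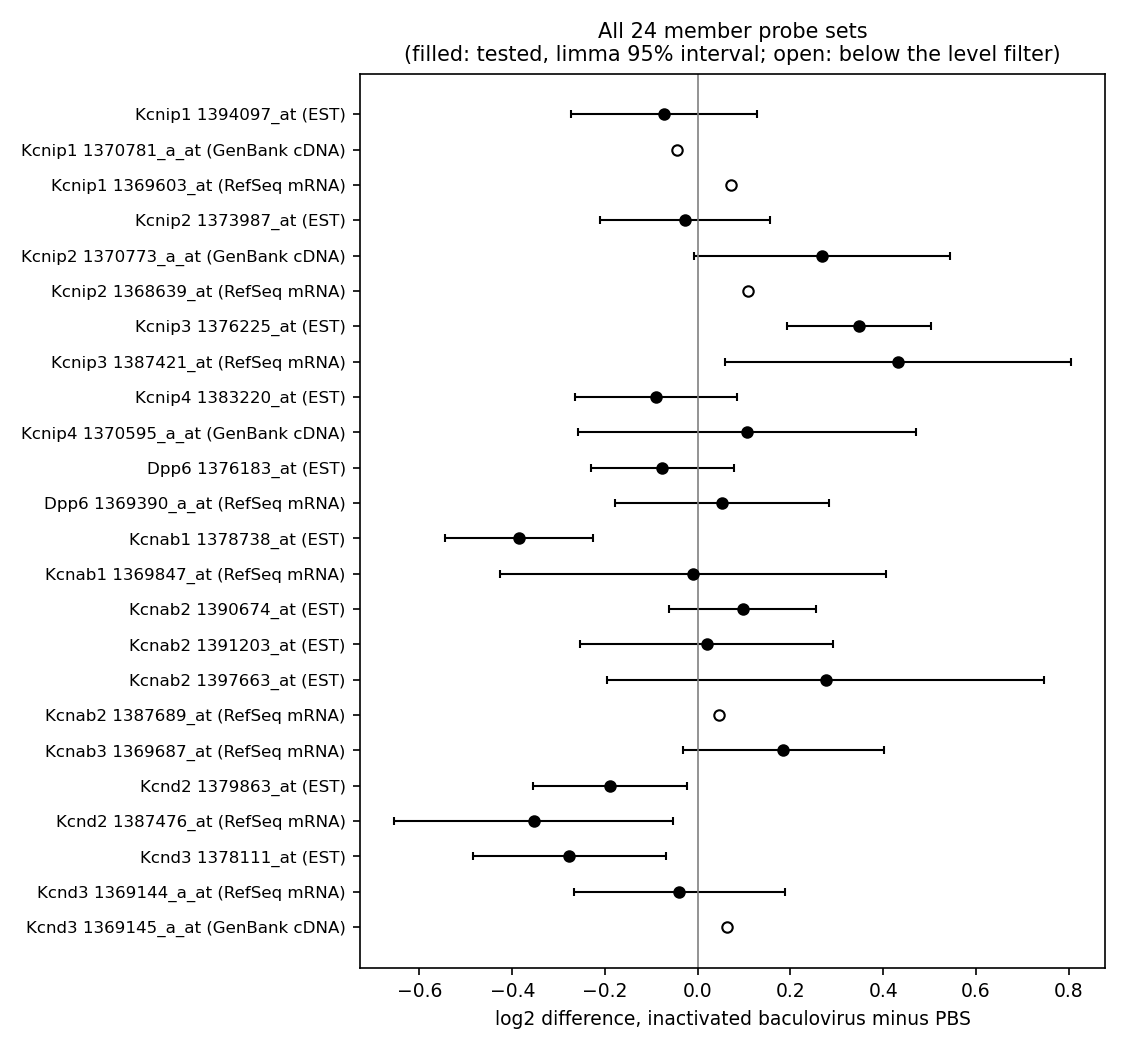
Log2 difference (inactivated baculovirus minus PBS) of all 24 member probe sets, with limma 95% intervals for the 19 tested and open points for the 5 below the level filter. Intervals without 0 belong to both probe sets of Kcnip3 and Kcnd2 and to 1 each of Kcnab1 and Kcnd3, and the type of record each probe set was designed on stands in brackets.

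Probe sets of a gene differed in what they were designed on and in how much they varied. By the prefix of the accession in the annotation, 9 of the 24 were designed on RefSeq mRNAs and 4 on other GenBank cDNAs. The remaining 11 had neither kind of prefix and were taken as designed on expressed sequence tags (ESTs, single reads of cloned transcripts). All 11 designed on ESTs passed the level filter, against 6 of the RefSeq and 2 of the GenBank ones. For every gene but Kcnab3 the brightest probe set was one of those 11. The median SD between replicates, on the log2 scale after the group means were taken off, was 0.104 for the 11 and 0.220 for the 8 other tested probe sets. Percentiles of this SD among all tested probe sets overlapped, at 3.30 to 98.4 for the 11 and 12.1 to 97.5 for the 8. Record type went with level here, and the part of either in the spread was not tested. All 4 probe sets whose groups did not overlap were among the 11. The gap between probe sets of a gene was also measured, with no test of its difference between groups. For Kcnab1 the log2 level of 1378738_at minus that of 1369847_at averaged 1.67 ± 0.229 on baculovirus arrays and 2.05 ± 0.407 on PBS arrays (SD, n = 4 each), and for Kcnd3 that of 1378111_at minus 1369144_a_at averaged 0.358 ± 0.0897 on baculovirus arrays and 0.595 ± 0.194 on PBS arrays.

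**Figure D3:**
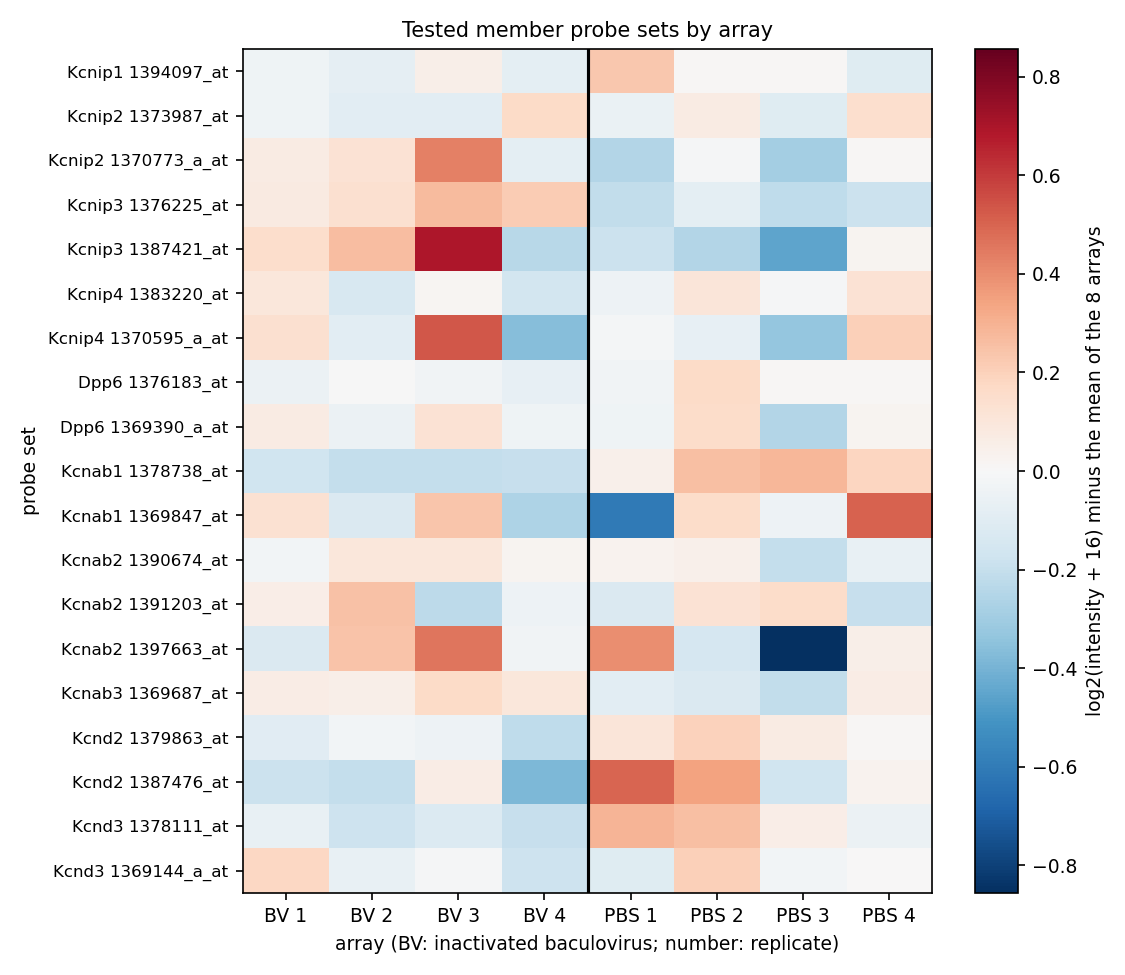
Log2(intensity + 16) of the 19 tested member probe sets on each array, minus the mean over the 8 arrays, with inactivated baculovirus (BV) arrays left of PBS arrays. Red is above and blue below the mean, and baculovirus replicate 3 is the highest array for 1370773_a_at, 1387421_at and 1370595_a_at of Kcnip2, Kcnip3 and Kcnip4.

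Some members varied together within the groups. After the group means were taken off, the 10 pairs of probe sets of the same gene had a median correlation of 0.435 over the 8 arrays, and the 161 pairs of different genes one of 0.246, with ranges of -0.570 to 0.859 and -0.823 to 0.944. Probe sets on an array share its scaling and its tissue sample, and the values are descriptions. The highest belonged to Kcnip3 1387421_at with Kcnip4 1370595_a_at, at 0.944, followed by Kcnip2 1370773_a_at with Kcnip3 1387421_at at 0.892 and with Kcnip4 1370595_a_at at 0.861. These are the dimmer, RefSeq- or cDNA-designed probe sets of 3 KChIPs, and all were highest on baculovirus replicate 3. The EST-designed and dimmer probe sets of Kcnip3 correlated at 0.263, and those of Kcnip2 at -0.048. Of genes outside the families, Maf1, Zbtb17 and Kifc2 followed Kcnip3 1376225_at most closely among 10529, at r = 0.984, 0.964 and 0.960 over 8 arrays after the group means were taken off. Snx25, Cyp2j3 and Usp38 did so for Kcnab1 1378738_at, at 0.976, 0.975 and 0.965. With so few arrays and 10529 genes compared, values this high can arise between unrelated genes. A link between these genes was not tested.

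Beta-actin has probe sets at both ends of its transcript, and their log2 ratio (3' over 5'), which moves with RNA quality and labelling, ran from 0.364 to 0.722 after inactivated baculovirus and from 0.408 to 0.624 after PBS. Among tested members, the ratio correlated most strongly within groups with the dimmer probe sets of Kcnip3, Kcnip4 and Kcnab1, at r = -0.630, -0.664 and -0.571. With Kcnip4 1383220_at it correlated at -0.657 (8 arrays each). Below the level filter both signs occurred, with 0.831 for Kcnd3 1369145_a_at, 0.589 for Kcnip2 1368639_at and -0.803 for Kcnab2 1387689_at. For the probe sets whose groups did not overlap, this correlation was 0.407 for Kcnip3, -0.113 for Kcnab1, -0.133 for Kcnd2 and 0.197 for Kcnd3. With the actin ratio as a covariate their log2 differences were 0.35, -0.39, -0.19 and -0.27 in the same order.

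**Figure D4:**
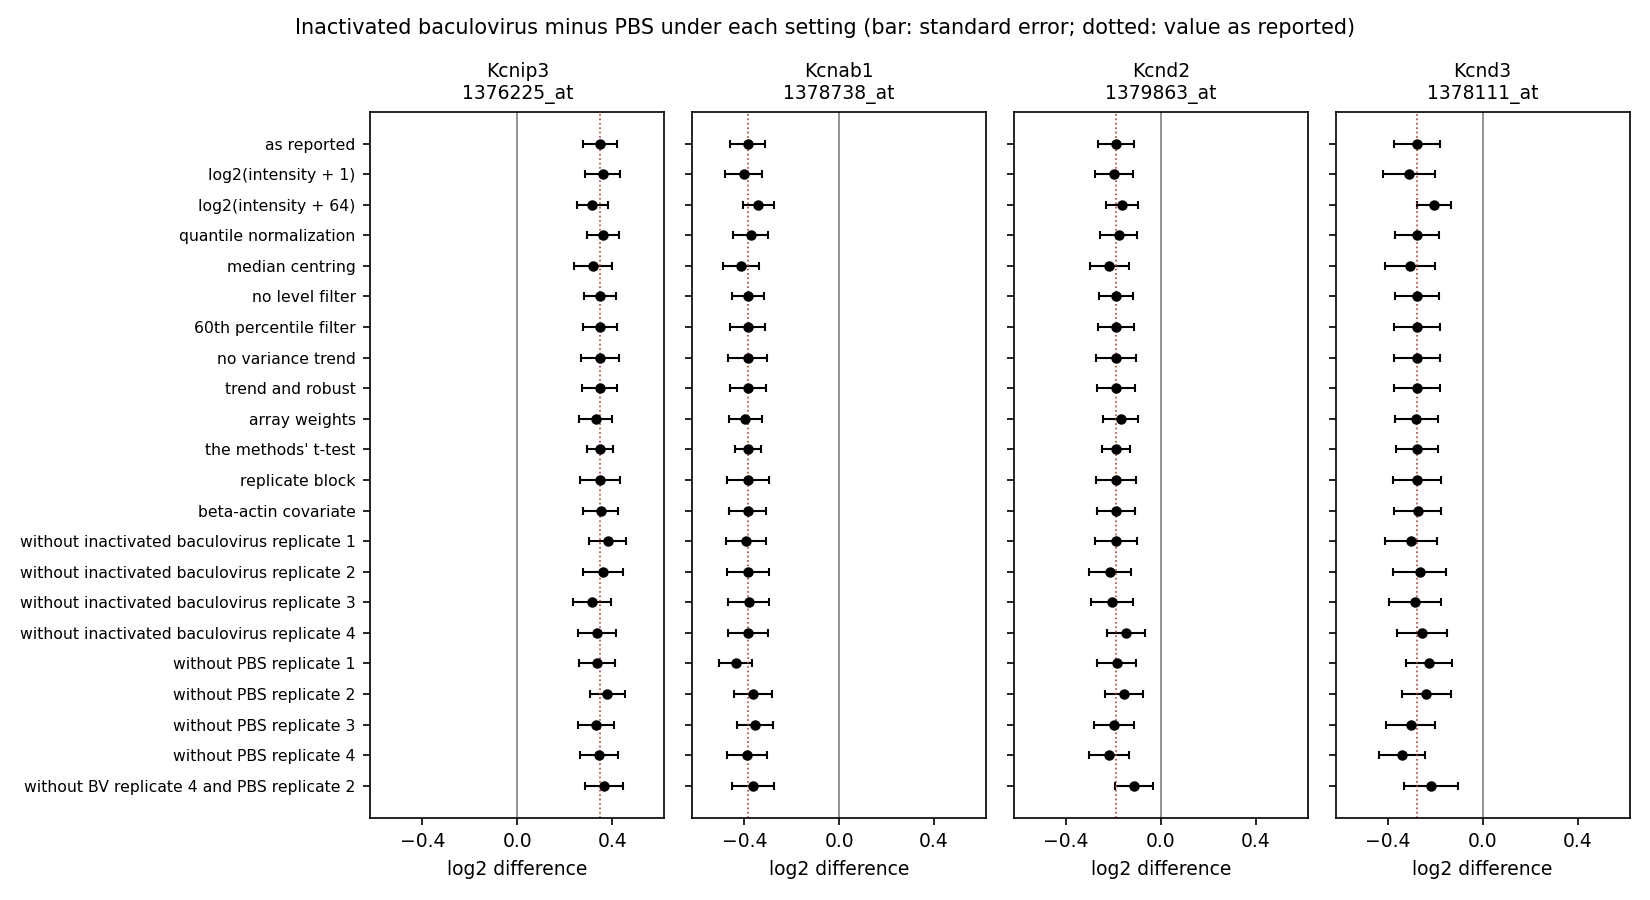
Log2 difference (inactivated baculovirus minus PBS, bar: SE) of the probe sets of Kcnip3, Kcnab1, Kcnd2 and Kcnd3 whose groups did not overlap, as reported and under the 21 alternatives. Values run from 0.32 to 0.38 for Kcnip3, from -0.44 to -0.34 for Kcnab1, from -0.22 to -0.11 for Kcnd2 and from -0.34 to -0.21 for Kcnd3, and choosing probe sets without overlap largely fixes their sign, so the plot shows only how far the values move.

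When the array with the highest actin ratio was left out of each group (baculovirus replicate 4 and PBS replicate 2), Kcnd2 1379863_at stood at -0.11 and Kcnd3 1378111_at at -0.22.

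Other genes of these channels had no common direction. Of 28 Kv alpha subunit genes on the array outside the members, 17 were tested, 0 passed in either direction, and 10 had a higher and 7 a lower mean (median log2 difference 0.02). Kcna4, the Kv1.4 subunit that inactivates fast by itself, measured 72.0, 82.5, 76.3 and 82.9 after inactivated baculovirus and 78.6, 107, 110.3 and 102 after PBS, with -0.28 ± 0.11 (SE). Only PBS replicate 1 lay within the baculovirus range. Kcnh2 stood at 0.28 ± 0.13 and Kcnc2, a Kv3 subunit of fast-spiking neurons, at -0.26 ± 0.14. Kcnd1, the remaining Kv4 subunit, stood at -0.07 ± 0.12.

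Of 20 genes for other partners and scaffolds of Kv channels, 17 were tested, 0 passed, and 7 had a higher and 10 a lower mean (median -0.02). Stx1a, a release protein that also binds Kv channels, stood at 0.28 ± 0.10, Dpp10, the relative of Dpp6, at -0.18 ± 0.09 and Adam22 at -0.11 ± 0.07. Neuronal calcium sensors other than KChIPs had 2 of 7 tested genes higher and 5 lower, 0 past the threshold, with Hpcal1 at 0.15 ± 0.13 and Ncald at -0.06 ± 0.07. Of 7 targets and partners of DREAM, 5 were higher, 2 lower and 0 passed. Pdyn, the prodynorphin gene that DREAM is known to repress, measured 271, 284, 221 and 349 after inactivated baculovirus and 322, 369, 317 and 382 after PBS. Its groups overlapped through baculovirus replicate 4, at -0.30 ± 0.12, and Slc8a3 stood at 0.25 ± 0.15.

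**Figure D5:**
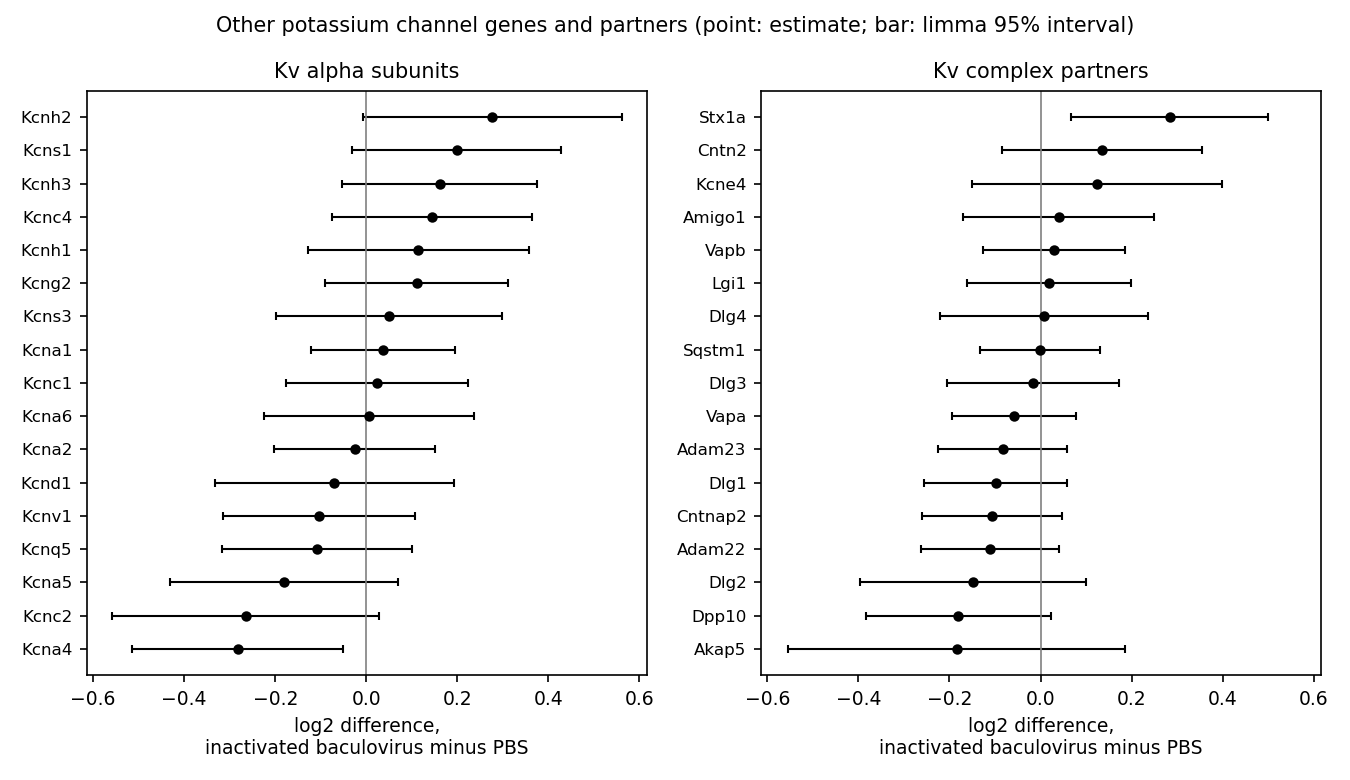
Log2 difference (inactivated baculovirus minus PBS) of tested Kv alpha subunit genes outside the members (left) and of other Kv complex partners (right), 17 in each, with limma 95% intervals. The intervals of Kcna4 (below) and Stx1a (above) leave out 0, and no gene passed the adjusted threshold.

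Markers of striatal projection neurons, the cells in which Kcnd2 is prominent, were lower after inactivated baculovirus in 15 of 21 tested genes and higher in 6, with 0 past the threshold and a median of -0.06. Their summed intensity ran from 9225 to 12413 after inactivated baculovirus and from 9463 to 12478 after PBS, and none was at 0. Bright probe sets weigh most in such sums, so the sums say little about the dimmer markers. Bcl11b stood at -0.39 ± 0.11, Meis2 at -0.28 ± 0.09, Drd2 at -0.02 ± 0.15 and Ppp1r1b at 0.06 ± 0.11 (log2 difference ± SE). Their part in the lower Kcnd2, Kcnd3 and Kcnab1 values was not tested. Cortical glutamatergic markers had 5 of 12 higher and 7 lower, and summed to 3793 to 4582 after inactivated baculovirus and 3785 to 4268 after PBS. Slc17a7 was at 454 on PBS replicate 3 and from 909 to 1270.5 on the other arrays. Tested markers higher and lower were 4 and 1 for striatal interneurons, 11 and 1 for microglia, 5 and 6 for astrocytes, 3 and 7 for oligodendrocytes, 6 and 3 for endothelium and 4 and 0 for choroid plexus, with 0 past the threshold in each list. In the choroid plexus list, the log2 difference of Ttr leans on PBS replicate 4, at 1.13 with that array and -0.09 without it. Without that array, an alternative chosen after seeing the data, 3 choroid plexus markers were still higher and 1, Ttr, was lower. Ttr then averaged 1744.0 on baculovirus arrays and 1848 on PBS arrays.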

How the data were processed

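The deposited values are intensities of 8 arrays, and the submitters' processing notes name GCOS and GCRMA. No source used here states which algorithm gave the deposited intensities. Each array had been scaled: with 2% trimmed at each end the mean was 100.02 on every array. Array medians after log2(intensity + 16) lay between 5.74 and 5.85, within the limit of 0.2 set for leaving them as they were. Precision is limited by the number of arrays, and the typical 95% interval reached 0.231 to either side (median over tested probe sets).

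Probe sets were named through GEO's platform annotation, and gene numbers matched to RefSeq changed 0 symbols. The 18625 probe sets above the level filter, for 10539 genes, were fitted in limma 3.58.1 under R 4.3.3 (variance trend, two-sided, unblocked), and p-values were adjusted over all of them by Benjamini-Hochberg. The script was tested on simulated data. No genome build is named with the intensities, and coordinates are those of the sequence windows alone. The members and gene lists were chosen with earlier results of these data known. A gene outside the members was represented by its probe set with the highest mean. Values are given for all members, for the 3 (channel and partner lists) or 2 genes of smallest p in each channel, sensor, DREAM and striatal list, for the 3 genes most like Kcnip3 and Kcnab1, and for Ppp1r1b, Drd2, Slc17a7 and Ttr, and the other cell type lists by counts. Kcnd1 was added after its values were seen. The alternatives changed the pseudocount (1 or 64), the scaling (quantile, or medians centred), the level filter (none, or the 60th percentile) and the variance model (no trend, robust, array weights, the methods' t-test). Others added a replicate block or the actin ratio, left out arrays, or averaged each gene's probe sets.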

Additional observations from a re-analysis of the deposited data

Results flagged for a closer look

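Of 48 sets of 4 arrays examined (24 member probe sets in both groups), 3 had an array far from the others, where chance gives about 1 in 20. Each lay in a probe set below the level filter. Kcnip1 1370781_a_at was at 26.7 on baculovirus replicate 4 and between 22.5 and 22.6 on the other baculovirus arrays, a gap of 0.974 of the group's log2 range. For Kcnip1 1369603_at, PBS replicate 2 had 2.76 where the remaining PBS arrays had 0.479 to 0.797 (0.852 of the range). Kcnip2 1368639_at was at 4.10 on baculovirus replicate 3 and between 7.505 and 8.20 on the other baculovirus arrays (0.843 of the range).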

How the results depend on the processing

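At an adjusted p of 0.05 limma called 0 probe sets under each alternative that used it. The methods' t-test called 0 with adjusted p-values, and likewise 0 with unadjusted ones and a 2-fold change. The 1254 probe sets at an unadjusted p under 0.05 became 1921 with no level filter, where more probe sets are tested, and ran from 709 without baculovirus replicate 2 to 1957 without PBS replicate 4. With median centring the split of these was 263 higher and 1085 lower, against 468 and 786 as reported. Averaging of probe sets aside, 13 of the 19 tested member probe sets kept the direction of their difference under every alternative. Among the 13 were the 4 without overlap, whose sign the choice largely fixes. The other 6 did not, each with an interval that holds 0. Of all 19 only 6 had an interval without 0, so part of the 13 held 0 as well. With a gene's probe sets averaged Kcnip2 stood at 0.12, against -0.03 for its brightest. Kcnip4 stood at 0.008, against -0.09 for its brightest, 1383220_at. The 9 members with a higher mean became 4 under the 60th percentile filter, which tests 14 of them. The median log2 difference of the members, -0.01, was 0.083 without baculovirus replicate 4 and PBS replicate 2 together, and the cause was not tested. With 1 array left out it ran from -0.04 to 0.04, and the members with a higher mean from 8 to 11 and with a lower mean from 8 to 11. Members at an unadjusted p under 0.05 ran from 4 to 8. The replicate numbers are no documented pairing: same-numbered arrays deviated from their group means with correlations of -0.00511 to 0.0160. With the number as a replicate block 0 probe sets passed and 1172 were at an unadjusted p under 0.05, and the members' counts were as reported.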
